A study of Mus musculus with 384 samples.

Results

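The 10 genes described here belong to the bone morphogenetic protein (BMP) pathway: the ligands Bmp2 and Bmp4, the receptor Bmpr1a, the secreted antagonists Grem1 and Nbl1, the response genes Id1, Id2 and Id3, and the feedback inhibitors Bambi and Smad7. They were taken by symbol from a single-cell expression table of mouse hair follicle cells, and all 10 were found among its 46517 rows with an Ensembl gene. The cells came from back skin at postnatal day 70. Each was sorted as DAPI-negative, integrin α6-positive and YFP-positive, and then as positive or negative for the surface protein Sca-1, and its RNA was read by Smart-seq2, which covers whole transcripts. Cells called dKO came from mice with the driver Sox9-CreER, the reporter R26-YFPfl/fl, and both alleles of Nfib and of Nfix floxed (NFIBfl/fl and NFIXfl/fl). Cells called cKO carried the same driver, reporter and NFIXfl/fl alleles but were NFIBfl/+, with 1 floxed Nfib allele. Both groups therefore share the Cre driver, which is expressed from Sox9, the floxed Nfix alleles and the YFP reporter, and no group without floxed alleles was analysed here. The deposited wells come from 2 dKO and 3 cKO plates, and Sca-1-positive cells only from dKO plate 2 and cKO plate 3.

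BMP ligands bind pairs of type I and type II receptors, of which Bmpr1a is a type I receptor, and the receptors phosphorylate SMAD proteins that enter the nucleus and switch on targets such as the Id genes. Gremlin 1 (Grem1) and Nbl1, also called DAN, bind BMP ligands outside the cell and keep them from their receptors, whereas Bambi is a decoy receptor and Smad7 an intracellular brake on the receptors. In the hair follicle, BMP signals from the dermis, the fat and neighbouring epithelial cells are known to hold the stem cells of the bulge at rest, and BMP antagonists accompany their activation.

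Of 384 deposited cells, 378 had at least 1000 genes at 1 TPM (a share of all transcripts, scaled for transcript length) and were kept. These were 154 dKO and 183 cKO Sca-1-negative cells, and 19 dKO and 22 cKO Sca-1-positive cells. TPM keeps no read depth, and the median number of genes detected per Sca-1-negative cell was 5199 and 5189 on dKO plates 1 and 2, against 4805, 4963 and 5044 on cKO plates 1, 2 and 3. Both targeted genes gave reads in dKO and cKO cells: Nfib averaged 58.4 and 90.4 TPM on the dKO plates, against 80.4, 72.8 and 67.1 TPM on the cKO plates, and Nfix 29.6 and 32.3 TPM in dKO, against 46.7, 48.0 and 43.7 TPM in cKO. A gene-level TPM counts what remains of a transcript after an exon is lost, so these values do not check the deletion. The labels call all cells male, but dKO plate 1 and cKO plates 1 and 2 carried 44.5, 51.4 and 59.8 TPM of Xist, the RNA of the inactive X chromosome, while dKO plate 2 and cKO plate 3 carried 34.1 and 41.7 summed TPM of 4 Y-linked genes. Comparisons of genotypes are therefore also given within the Xist plates and within the Y plates. No label names an animal, so each genotype counts as 1 sample, no test was made, and a member is called higher or lower only by a rule of size. All 9 bulge stem cell markers and all 7 basal keratinocyte markers averaged at least 5 TPM in Sca-1-negative cells on every plate, and 3 of the 9 bulge markers did so in Sca-1-positive cells on either plate.

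The regulatory sequence of the members that were higher in Cd34-positive cells (described further on) is shown first, since these 4 genes carry most of the differences reported. RefSeq promoters (build GRCm38.p6, 250 bases before to 50 bases after the transcription start) were matched by symbol for 6 of the 10 members. Capitals mark TTGGC, the half-site of nuclear factor I, and GGCGCC, a GC-rich core bound by SMAD proteins of the BMP branch. Each line gives the sense strand from 5′ to 3′.
Grem1, chr2:113758599-113758898, minus strand: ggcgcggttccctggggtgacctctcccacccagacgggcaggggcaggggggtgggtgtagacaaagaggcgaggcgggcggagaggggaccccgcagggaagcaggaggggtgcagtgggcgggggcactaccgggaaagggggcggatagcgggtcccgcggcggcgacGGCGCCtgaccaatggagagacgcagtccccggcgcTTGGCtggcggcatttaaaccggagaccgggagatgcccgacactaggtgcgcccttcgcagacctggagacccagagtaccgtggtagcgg
Nbl1, chr4:139092921-139093220, minus strand: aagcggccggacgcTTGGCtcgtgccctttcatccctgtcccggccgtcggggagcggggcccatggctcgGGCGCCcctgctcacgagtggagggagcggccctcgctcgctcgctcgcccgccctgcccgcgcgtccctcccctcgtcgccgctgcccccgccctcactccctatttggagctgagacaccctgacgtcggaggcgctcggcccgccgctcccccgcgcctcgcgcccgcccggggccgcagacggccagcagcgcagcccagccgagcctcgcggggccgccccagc
Id2, chr12:25096043-25096342, minus strand: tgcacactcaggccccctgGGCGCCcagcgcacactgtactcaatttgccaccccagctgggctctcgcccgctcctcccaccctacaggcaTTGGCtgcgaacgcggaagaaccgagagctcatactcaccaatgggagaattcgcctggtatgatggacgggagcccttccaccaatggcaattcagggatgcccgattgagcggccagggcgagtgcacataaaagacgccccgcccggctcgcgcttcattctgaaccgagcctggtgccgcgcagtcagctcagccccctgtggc
Id3, chr4:136143572-136143871, plus strand: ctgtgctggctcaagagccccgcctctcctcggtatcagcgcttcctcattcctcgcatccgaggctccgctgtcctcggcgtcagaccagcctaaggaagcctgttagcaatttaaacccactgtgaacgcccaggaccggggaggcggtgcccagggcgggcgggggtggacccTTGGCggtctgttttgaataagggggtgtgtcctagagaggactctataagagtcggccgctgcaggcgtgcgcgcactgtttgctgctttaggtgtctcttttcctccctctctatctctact
Both strands were searched. TTGGC was found in 5 of the 6 member promoters (these 4 and Bmp4) and in 46.7% of 32851 mouse promoters of that length. A match is a description of these letters and not a binding site. GGCGCC was found in 4 of the 6 (Grem1, Nbl1, Id2 and Bmpr1a) and in 11.9% of all promoters, but the member promoters were also richer in G and C, at 60.0% to 79.3% against a median of 52.7%. The full palindrome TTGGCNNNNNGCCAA was in none of the 6 and in 12 of all promoters.

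The ligands were rare in Sca-1-negative cells. Bmp2 averaged 1.44 and 1.30 TPM on dKO plates 1 and 2, against 0.345, 3.95 and 1.31 TPM on cKO plates 1, 2 and 3. Only 9 of 154 dKO and 9 of 183 cKO cells reached 10 TPM, the level taken here as positive. These shares were 5.84% (exact Clopper-Pearson 95% interval 2.71% to 10.8%) in dKO and 4.92% (2.27% to 9.13%) in cKO, and the plates overlapped. Such intervals cover counting error only, since Smart-seq2 carries no molecular identifiers. Bmp4 averaged 0.135 and 0 TPM on the dKO plates, against 0.540, 4.84 and 0.109 TPM on the cKO plates. No dKO cell and 5 cKO cells were positive, 4 of them on cKO plate 2, and Bmp4 was listed at 0 in every one of the 91 Cd34-positive cells. Of these 5 cells, 4 were also positive for Ly6a, the gene of Sca-1. Neither ligand reached the average of 5 TPM at which a gene was called measured, so neither entered the size rule. Of 11 other BMP ligand genes, Bmp7 alone was measured in these cells, with 17.0 and 20.9 TPM on the dKO plates, against 18.4, 17.4 and 16.4 TPM on the cKO plates.

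Both antagonists among the members were lower in dKO than in cKO Sca-1-negative cells. Grem1 averaged 2.36 and 4.94 TPM on dKO plates 1 and 2, against 15.4, 12.1 and 11.9 TPM on cKO plates 1, 2 and 3. All cKO plates lay above both dKO plates, and the ratio of plate-averaged means (after adding 1 TPM, so that ratios of low genes are understated) was 3.04-fold lower in dKO, a log2 ratio of -1.60. Positive cells made up 8.60% and 9.84% of the dKO plates, against 29.6%, 21.3% and 16.9% of the cKO plates. The exact intervals were 3.79% to 16.2% and 3.70% to 20.2% on the dKO plates. On cKO plates 1, 2 and 3 they were 19.3% to 41.6%, 10.7% to 35.7% and 8.76% to 28.3%. Only dKO plate 1 and cKO plate 1 did not overlap in this share. Among positive cells the median was 22.0 and 39.0 TPM on the dKO plates, against 43.1, 43.8 and 47.3 TPM on the cKO plates. The dKO medians rest on 8 and 6 cells, and that of dKO plate 2 lay close to those of cKO plates 1 and 2. A clearly lower level in positive cells was therefore seen on dKO plate 1 only. Within the Xist plates the log2 ratio was -2.13, and within the Y plates -1.12.

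Nbl1 averaged 6.82 and 14.7 TPM on the dKO plates, against 32.6, 48.4 and 20.3 TPM on the cKO plates. The plates did not overlap, and Nbl1 was 2.96-fold lower in dKO (log2 ratio -1.57). The size depended on the kind of plate: the log2 ratio was -2.41 within the Xist plates and -0.44 within the Y plates, which is under a ratio of 1.5, so Nbl1 did not pass within the Y plates. Positive cells made up 17.2% and 29.5% of the dKO plates, against 46.5%, 46.8% and 33.8% of the cKO plates. The exact intervals of dKO plate 2 (18.5% to 42.6%) and cKO plate 3 (22.6% to 46.6%) overlap, so those plates cannot be told apart in this share.

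**Figure D1:**
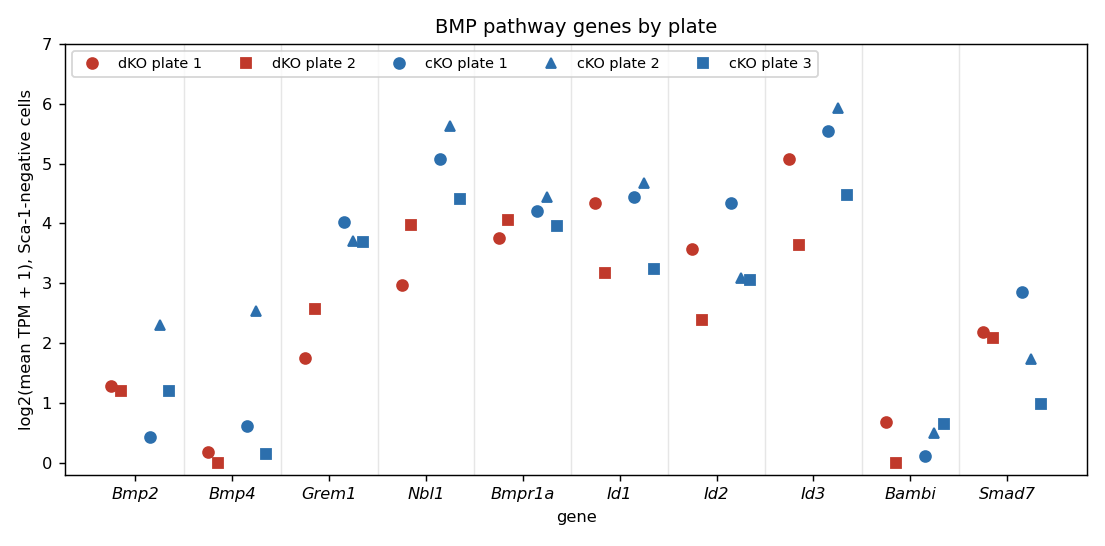
Each point is the mean TPM of 1 gene over the Sca-1-negative cells of 1 plate, as log2(mean TPM + 1), with dKO plates in red and cKO plates in blue; circles and triangles mark the Xist plates and squares the Y plates. The dKO points of Grem1 (2.36 and 4.94 TPM) and Nbl1 (6.82 and 14.7 TPM) lie below all cKO points, and those of the other 8 genes overlap the cKO points or lie at under 5 TPM.

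These were the only members past the size rule between genotypes, which asked for a ratio of 1.5 either way and no overlap between plates on the scales of mean TPM and of mean log2(TPM + 1). Of the 6 measured members (Bmpr1a, Grem1, Nbl1, Id1, Id2 and Id3), 0 were higher and 2 lower in dKO, where 1.76% of 7103 measured genes were higher and 3.96% lower. The median log2 ratio was -0.45 over all 10 members and -0.12 over all measured genes. The 10 include Bmp2, Bmp4, Bambi and Smad7, which were not measured, so these medians cover unlike sets and are not compared. With median-of-ratios size factors the median over all measured genes was -0.02. The calls over all genes then turned to 190 higher and 143 lower, against 125 higher and 281 lower on TPM as deposited. With ERCC and the 5 most abundant rows removed they were 582 higher and 387 lower. Grem1 and Nbl1 passed as lower under both scalings. Grem1 did not pass once the highest 5% of cells were removed for each gene. At 3.65 TPM in dKO and 13.1 TPM in cKO it is not measured under a filter of 20 TPM. Even at 5 TPM it was measured only through the cKO plates, so it could pass only as lower, and nothing is read from its passing. Grem1 and Nbl1 were also the only measured members whose share of positive cells was lower on both dKO plates than on all cKO plates. However, 10% of measured genes (713 of 7103) met that looser condition. Of 50 other BMP pathway genes, 19 were measured and 0 passed in either direction. Among them Sostdc1, a secreted antagonist also called ectodin, averaged 133 and 91.1 TPM on the dKO plates, against 142, 180 and 95.4 TPM on the cKO plates.

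The receptor gene Bmpr1a varied least between plates among the measured members, with 12.6 and 15.6 TPM on the dKO plates, against 17.6, 20.9 and 14.5 TPM on the cKO plates. Positive cells made up 38.3% of dKO cells (30.6% to 46.5%) and 39.3% of cKO cells (32.2% to 46.8%). It was neither higher nor lower by the size rule in any comparison of genotypes, Cd34 classes or gates as computed over all plates. Among the measured receptors and co-receptors of the other lists, Rgma, a BMP co-receptor, averaged 18.0 and 18.1 TPM in dKO, against 18.4, 28.7 and 17.8 TPM in cKO.

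The response genes varied widely between plates of 1 genotype. Id3, the highest of the 10 members, averaged 32.6 and 11.5 TPM on dKO plates 1 and 2, against 45.8, 60.3 and 21.3 TPM on cKO plates 1, 2 and 3. It averaged 1.89-fold lower in dKO (log2 ratio -0.91), but dKO plate 1 lay above cKO plate 3, so it did not pass over all plates. It did pass as lower within either kind of plate. Its log2 ratio was -0.68 within the Xist plates, where 14.9% of measured genes were lower. It was -0.84 within the Y plates, where 1 plate stands against 1 and 10.2% were lower. The median log2 ratio of all measured genes was -0.24 within the Xist plates and 0.04 within the Y plates. Rn18s-rs5, a ribosomal RNA row, held 61.5% of the TPM on dKO plate 1, against 56.3% and 56.8% on cKO plates 1 and 2. The part of that shift in the Id3 ratio was not tested. Id1 averaged 19.3 and 7.98 TPM on the dKO plates, against 20.7, 24.6 and 8.43 TPM on the cKO plates, and its log2 ratio was -0.37, with -0.22 within the Xist plates and -0.07 within the Y plates. Id2 averaged 10.9 and 4.22 TPM on the dKO plates, against 19.4, 7.50 and 7.34 TPM on the cKO plates, with a log2 ratio of -0.53, and -0.28 within the Xist plates and -0.68 within the Y plates. Neither Id1 nor Id2 passed within either kind. The proteins of all 3 genes lack a DNA-binding domain and hold other helix-loop-helix factors away from DNA.

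By mean TPM, Id1 and Id3 put the 5 plates in the same order. The Y plates, dKO plate 2 and cKO plate 3, were lowest, followed by dKO plate 1, cKO plate 1 and cKO plate 2. The summed TPM of 12 immediate-early genes, a class that responds fast to stimuli such as cell dissociation, gave that order too. It was 2000 and 619 TPM on dKO plates 1 and 2, against 2417, 3417 and 1177 TPM on cKO plates 1, 2 and 3. In mean log2(TPM + 1) the Id genes did not keep that order. Id1 was then highest on dKO plate 1 (2.34) and lowest on cKO plate 3 (0.98), and Id3 was highest on cKO plate 1 (3.45). The part of the immediate-early response, or of the kind of plate, in the Id values was not tested. Cells with at least 1 of the 3 Id genes at 10 TPM made up 58.1% (47.4% to 68.2%) of dKO plate 1 and 37.7% (25.6% to 51.0%) of dKO plate 2, against 69.0% (56.9% to 79.5%), 66.0% (50.7% to 79.1%) and 41.5% (29.4% to 54.4%) of cKO plates 1, 2 and 3. All 3 were positive together in 24 of 337 cells, 13 of them dKO and 11 cKO, and none was positive in 153.

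The feedback inhibitors were near the floor of the assay. Smad7 averaged 3.57 and 3.25 TPM on the dKO plates, against 6.21, 2.34 and 0.966 TPM on the cKO plates, and 12 dKO and 12 cKO cells were positive. On cKO plate 1, 1 cell supplied 37.2% of the summed Smad7 TPM. Bambi was positive in 1 dKO and 3 cKO cells and was listed at 0 in every Sca-1-negative cell of dKO plate 2. Neither was measured by the 5 TPM rule.

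Cd34 marks the bulge, where the resting stem cells of the follicle lie. Cells with at least 10 TPM of Cd34 made up 24.7% and 26.2% of the Sca-1-negative cells on dKO plates 1 and 2, against 32.4%, 27.7% and 24.6% on cKO plates 1, 2 and 3. The remaining cells are called Cd34-negative, although some may hold Cd34 RNA that was not captured. The summed TPM of the 9 bulge markers, of which Cd34 is one, was 1200 and 1433 TPM in Cd34-positive cells of the dKO plates and 2283, 2793 and 1957 TPM in those of the cKO plates. In Cd34-negative cells it was 335 and 510 TPM on the dKO plates and 498, 702 and 406 TPM on the cKO plates.

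Of the 6 measured members, 4 were higher and 0 lower in Cd34-positive than in Cd34-negative cells. The rule asked for a mean within-plate ratio of at least 1.5 with the same sign on all 5 plates on both scales. Of 7167 measured genes, 6.78% were higher and 7.31% lower. Grem1 and Id2 were measured only through the Cd34-positive cells. They could therefore pass only as higher, and nothing is read from their passing. The count of 4 is thus not set against these shares. Nbl1 and Id3 averaged at least 5 TPM in both classes. Grem1 averaged 7.55, 15.6, 35.04, 38.9 and 48.3 TPM in Cd34-positive cells of dKO plates 1 and 2 and cKO plates 1, 2 and 3, against 0.655, 1.13, 5.94, 1.84 and 0.0108 TPM in Cd34-negative cells of the same plates. Its mean log2 ratio was 3.43. The 91 Cd34-positive cells, 27.0% of all 337, held 84.9% of the summed Grem1 TPM, and 48 of the 56 Grem1-positive cells were Cd34-positive (85.7%, 73.8% to 93.6%). Grem1 RNA was thus read mainly in cells that also carried Cd34, in both genotypes.

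Id2 had the same pattern. It averaged 34.9, 13.0, 56.5, 20.4 and 25.1 TPM in Cd34-positive cells of dKO plates 1 and 2 and cKO plates 1, 2 and 3, against 3.02, 1.10, 1.58, 2.55 and 1.54 TPM in Cd34-negative cells, a mean log2 ratio of 3.27. The Cd34-positive cells held 85.6% of its summed TPM and 51 of the 66 Id2-positive cells. Nbl1 averaged 17.6, 32.0, 81.0, 120.2 and 62.5 TPM in Cd34-positive cells, against 3.28, 8.48, 9.40, 21.0 and 6.51 TPM in Cd34-negative cells, a mean log2 ratio of 2.49. Id3 averaged 69.8, 15.8, 82.2, 96.0 and 48.8 TPM in Cd34-positive cells, against 20.4, 9.91, 28.3, 46.7 and 12.3 TPM in Cd34-negative cells, a mean log2 ratio of 1.36. Both were spread more widely than Grem1 and Id2: Cd34-positive cells held 71.8% of the summed TPM of Nbl1 and 51.6% of that of Id3, and 58 of 111 Nbl1-positive and 60 of 136 Id3-positive cells.

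**Figure D2:**
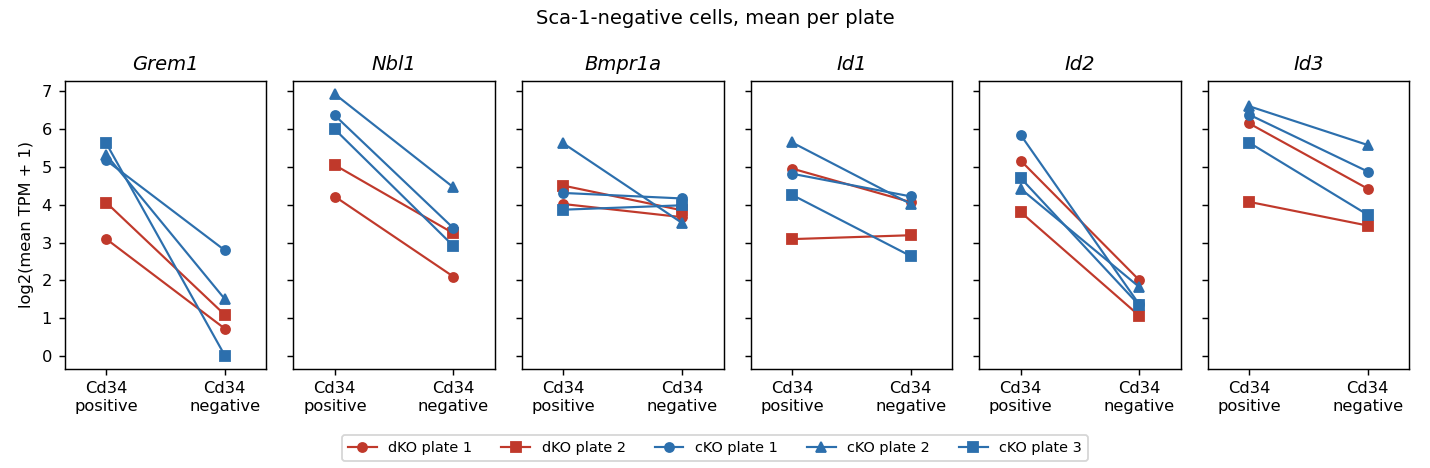
Lines join the mean TPM of 1 plate in Cd34-positive (left) and Cd34-negative (right) Sca-1-negative cells, as log2(mean TPM + 1), for 6 genes, with dKO plates in red and cKO plates in blue. The lines of Grem1, Nbl1, Id2 and Id3 fall from left to right on all 5 plates; those of Id1 and Bmpr1a do not on every plate.

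Id1 and Bmpr1a did not pass. Id1 averaged 30.01, 7.52, 27.2, 49.0 and 18.2 TPM in Cd34-positive cells of dKO plates 1 and 2 and cKO plates 1, 2 and 3, against 15.8, 8.15, 17.6, 15.2 and 5.25 TPM in Cd34-negative cells, and was higher in Cd34-positive cells on 4 of the 5 plates, with dKO plate 2 the exception. Bmpr1a averaged 15.2, 21.7, 18.8, 48.1 and 13.6 TPM in Cd34-positive cells, against 11.7, 13.4, 16.9, 10.5 and 14.8 TPM in Cd34-negative cells, and its ratio rested mainly on cKO plate 2. Other genes of the pathway did not share one direction: of the 19 measured, 1 passed as higher and 5 as lower in Cd34-positive cells. The higher one was Fstl1, a secreted glycoprotein of the follistatin family (43.8 TPM in Cd34-positive and 9.90 TPM in Cd34-negative cells, averaged over plates). The lower ones were the ligand Bmp7 (6.57 and 22.4 TPM), the antagonists Fst, which is follistatin (17.8 and 38.4 TPM), and Sostdc1 (66.2 and 152 TPM), the co-receptor Rgma (11.3 and 23.6 TPM) and the transcription factor gene Gata3 (32.0 and 69.9 TPM). Leaving out Grem1, which could pass only as higher, antagonist genes of the pathway were on both sides. Nbl1 and Fstl1 were higher and Fst and Sostdc1 lower in Cd34-positive cells.

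The immediate-early genes differed between these classes as well. Their summed TPM was 1904 and 402 TPM in Cd34-positive cells of the dKO plates and 703, 494 and 49.6 TPM in those of the cKO plates, against 2031 and 697 TPM in Cd34-negative cells of the dKO plates and 3238, 4534 and 1545 TPM in those of the cKO plates. Cd34-positive cells of dKO plates also carried 43.5 and 77.5 summed TPM of 8 fibroblast and dermal papilla markers, against 18.4, 9.44 and 16.0 TPM on cKO plates, with 6 or 7 of the 8 markers at 0 on each plate. No kept cell had 3 or more positive markers of fibroblasts, melanocytes, endothelial cells or Schwann cells, and 2 cells had 3 or more immune markers.

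The genotypes were then compared within the Cd34 classes. In Cd34-positive cells, Grem1 and Nbl1 were again lower in dKO, 0 members were higher, and the background was 4.32% of 7207 measured genes higher and 5.47% lower (311 and 394 genes, or 450 and 245 with size factors). Grem1 was 3.31-fold lower (log2 ratio -1.73), with 7.55 and 15.6 TPM in dKO, against 35.04, 38.9 and 48.3 TPM in cKO. Its positive cells made up 30.4% and 31.3% of the dKO cells, against 73.9%, 61.5% and 68.8% of the cKO cells. Nbl1 was 3.44-fold lower (log2 ratio -1.78), with 17.6 and 32.0 TPM in dKO, against 81.0, 120.2 and 62.5 TPM in cKO. Its positive cells made up 39.1% and 62.5% of the dKO cells, against 69.6%, 76.9% and 81.3% of the cKO cells. For both genes, the exact intervals of these shares overlap between every dKO and every cKO plate. Both ratios had the same sign within the Xist plates (-2.15 for Grem1 and -2.45 for Nbl1) and within the Y plates (-1.57 and -0.94). The summed bulge markers given above were also lower in the Cd34-positive cells of the dKO plates (1200 and 1433 TPM) than in those of the cKO plates (2283, 2793 and 1957 TPM), and their part in these ratios was not tested.

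**Figure D3:**
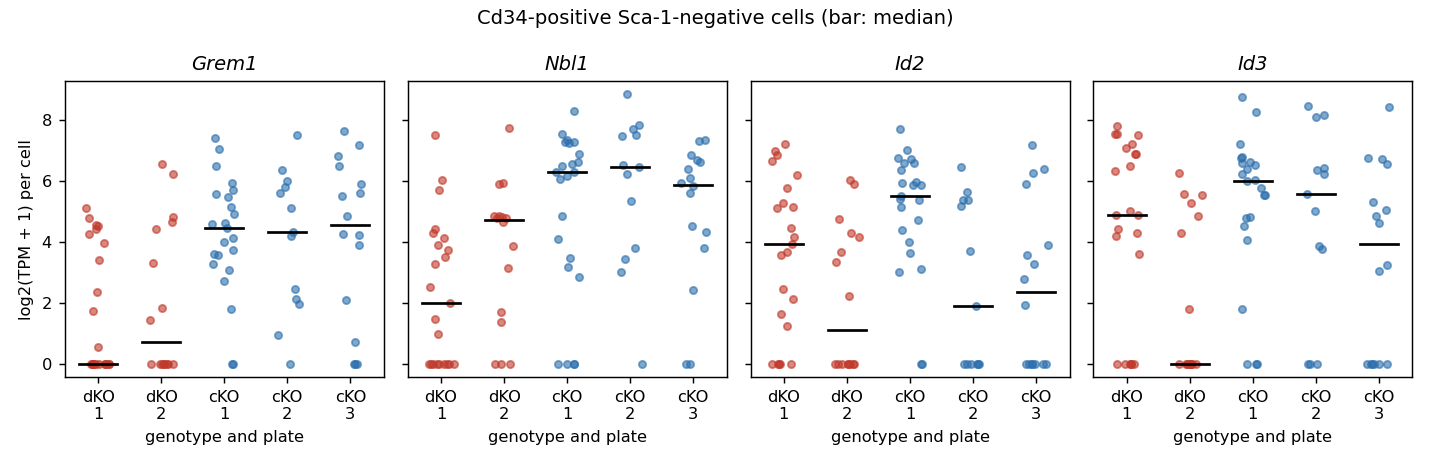
Each point is 1 Cd34-positive Sca-1-negative cell, as log2(TPM + 1), by genotype and plate, and each bar is the median of the plate. The medians of Grem1 are 0 and 0.855 TPM on the dKO plates, against 21.1, 18.8 and 22.9 TPM on the cKO plates, while those of Id2 and Id3 overlap between genotypes.

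The Id genes did not pass in Cd34-positive cells. Id3 averaged 69.8 and 15.8 TPM on dKO plates 1 and 2, against 82.2, 96.0 and 48.8 TPM on the cKO plates, and dKO plate 1 lay within the cKO range. Without dKO plate 1, which leaves 16 dKO cells of 1 plate, 5 members passed as lower (Grem1, Nbl1, Id1, Id2 and Id3), and so did 11.7% of measured genes. In Cd34-negative cells 0 of 4 measured members passed, where 2.47% of 6937 measured genes were higher and 4.97% lower (171 and 345 genes, or 244 and 202 with size factors). Nbl1 there had 3.28 and 8.48 TPM in dKO, against 9.40, 21.0 and 6.51 TPM in cKO, and Grem1 was under 6 TPM on every plate. Nbl1 alone passed as lower in these cells without dKO plate 2, Id3 alone without dKO plate 1, and both without cKO plate 3, where 11.2%, 11.5% and 8.68% of measured genes passed as lower. Of the other pathway genes, 20 were measured in Cd34-positive cells: Fstl1 was higher in dKO (57.6 TPM in dKO and 34.7 TPM in cKO, averaged over plates), with a log2 ratio of 0.45 within the Xist plates, under a ratio of 1.5, and 0.91 within the Y plates. Fstl3, a follistatin-like antagonist, was lower, with 7.63 and 7.82 TPM on the dKO plates, against 16.5, 13.0 and 47.8 TPM on the cKO plates, and 1 cell supplied 48.9% of its TPM on cKO plate 3. Smad9, a BMP-branch SMAD, was lower, with 0.958 and 1.41 TPM on the dKO plates, against 14.3, 8.84 and 2.09 TPM on the cKO plates. Its log2 ratio within the Y plates was only -0.36, under a ratio of 1.5. Smad9 was measured only through the cKO plates (1.19 TPM in dKO and 8.40 TPM in cKO). It could therefore pass only as lower, and nothing is read from its passing.

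Sca-1 is made by cells of the upper follicle and the epidermis, and Ly6a reached 10 TPM in 17 of 19 Sca-1-positive dKO cells and 18 of 22 Sca-1-positive cKO cells. Some RNA of Ly6a was also read in the Sca-1-negative sort, where it reached 10 TPM in 26.2% of cells on both dKO plate 2 and cKO plate 3. The summed TPM of 6 upper follicle markers, Ly6a among them, was lower in Sca-1-positive than in Sca-1-negative cells. It was 194 against 300 TPM on dKO plate 2 and 327 against 461 TPM on cKO plate 3. That of 6 differentiated epidermis markers was higher, with 500 against 292 TPM and 603 against 413 TPM. The gates are therefore not named as parts of the follicle here. No Sca-1-positive cell was Cd34-positive. The gates were compared on the same plate, with 1 plate per genotype and therefore no replicate, and a member passed when its means differed 2-fold or more and its mean log2(TPM + 1) by 1 or more.

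Bmp4 was read mainly in Sca-1-positive cells in both genotypes, and in a minority of them. On dKO plate 2 it averaged 24.5 TPM in Sca-1-positive cells and was listed at 0 in all 61 Sca-1-negative cells, and on cKO plate 3 it averaged 15.3 TPM in Sca-1-positive cells, against 0.109 TPM in Sca-1-negative cells. Positive cells were 6 of 19 (31.6%, 12.6% to 56.6%) and 8 of 22 (36.4%, 17.2% to 59.3%) in the Sca-1-positive gate. In the Sca-1-negative gate they were 0 of 61, which allows a share of up to 4.92% (3 cells divided by the number of cells; the exact 95% interval ends at 5.87%), and 0 of 65, which allows up to 4.62% (5.52%). The highest Bmp4 value was 175 TPM in a dKO cell and 105 TPM in a cKO cell, and 6 of the 6 positive dKO cells and 7 of the 8 positive cKO cells were also positive for Ly6a. Bmp4 was 1 of 5 measured members that passed as higher on dKO plate 2, where 4.24% of 6575 measured genes were higher and 10.4% lower, and 1 of 6 on cKO plate 3, where 2.96% of 6682 were higher and 5.76% lower. Bmp4 reached the measured level only through its Sca-1-positive cells, so it had to differ, and nothing is read from its passing. Size factors turned these counts over all genes, 279 higher and 682 lower on dKO plate 2 and 198 higher and 385 lower on cKO plate 3, to 476 and 376 and to 324 and 227. Bmp4 passed under them on both plates, but not on cKO plate 3 once the highest 5% of cells were removed, nor on either plate with genes averaging at least 20 TPM.

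Grem1 was listed at 0 in all 41 Sca-1-positive cells. In the Sca-1-negative cells of the same plates it averaged 4.94 TPM in dKO and 11.9 TPM in cKO, and it passed as lower in Sca-1-positive cells on cKO plate 3 only, since on dKO plate 2 it was below the measured level. There it was measured only through the Sca-1-negative cells, and the call was lost with size factors and with no filter on cells. By the same rule a count of 0 allows positive shares of up to 15.8% of 19 cells and 13.6% of 22 cells (exact intervals end at 17.6% and 15.4%), so the dKO share in Sca-1-negative cells (9.84%) would not have been distinguishable from 0 at this number of cells. Nbl1, in contrast to Grem1, was read in both gates: it averaged 16.9 TPM in Sca-1-positive and 14.7 TPM in Sca-1-negative dKO cells, and 15.4 TPM in Sca-1-positive and 20.3 TPM in Sca-1-negative cKO cells. Id3 was also close between gates in mean TPM, with 11.9 and 11.5 TPM in Sca-1-positive and Sca-1-negative dKO cells and 19.3 and 21.3 TPM in cKO cells. In mean log2(TPM + 1) both genes were higher in Sca-1-positive cells, by less than the rule asks. The differences were 0.87 in dKO and 0.22 in cKO for Nbl1, and 0.74 and 0.54 for Id3. Id1 averaged 3.06 TPM in Sca-1-positive and 7.98 TPM in Sca-1-negative dKO cells, and 4.87 and 8.43 TPM in the same gates of cKO, without passing.

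**Figure D4:**
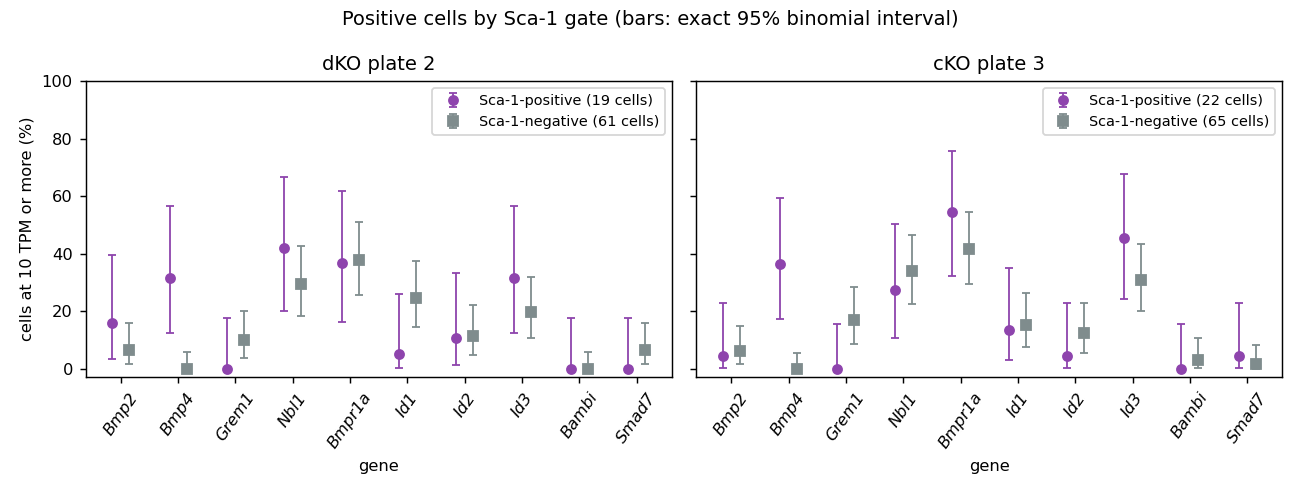
Points give the percentage of cells at 10 TPM or more in the Sca-1-positive (purple circles) and Sca-1-negative (grey squares) cells of dKO plate 2 and cKO plate 3, with exact 95% binomial intervals. Bmp4 is at 31.6% and 36.4% in Sca-1-positive cells and at 0 in Sca-1-negative cells, and Grem1 is at 0 in Sca-1-positive cells of both plates.

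The other members were low in both gates or did not differ by the rule. Bmp2 averaged 6.73 TPM in Sca-1-positive and 1.30 TPM in Sca-1-negative dKO cells, with 3 of 19 Sca-1-positive cells positive, and 1.67 and 1.31 TPM in the same gates of cKO. Bmpr1a averaged 13.1 TPM in Sca-1-positive and 15.6 TPM in Sca-1-negative dKO cells, and 12.8 and 14.5 TPM in the same gates of cKO. Id2 averaged 1.81 and 4.22 TPM in Sca-1-positive and Sca-1-negative dKO cells, and 0.948 and 7.34 TPM in cKO. Smad7 averaged 0.0289 TPM in Sca-1-positive and 3.25 TPM in Sca-1-negative dKO cells, and 0.944 and 0.966 TPM in cKO. Among 18 measured genes of the other pathway lists on dKO plate 2, Gata3 was higher in Sca-1-positive cells (153 and 54.7 TPM) and 6 were lower: the antagonists Fst (0.0942 and 28.5 TPM), Fstl1 (3.51 and 26.01 TPM), Sostdc1 (14.0 and 91.1 TPM) and Crim1 (11.7 and 52.1 TPM), the SMAD ubiquitin ligase Smurf2 (1.25 and 9.78 TPM) and the SMAD corepressor Ski (4.89 and 19.0 TPM). Among 19 on cKO plate 3, Gata3 was again higher (133 and 43.9 TPM). Fst (5.91 and 21.6 TPM), Crim1 (11.4 and 34.9 TPM) and Rgma (7.33 and 17.8 TPM) were lower. So were the BMP-branch transducer Smad1 (3.63 and 10.2 TPM) and Ski (4.73 and 15.7 TPM). Fst, Fstl1, Smurf2 and Ski on dKO plate 2 and Smad1 and Ski on cKO plate 3 were measured only through Sca-1-negative cells. These could pass only as lower, and nothing is read from their passing. The ligand gene Bmp3, named after its values were seen, averaged 9.46 TPM in Sca-1-positive dKO cells and 7.76 TPM in Sca-1-positive cKO cells and was listed at 0 in Sca-1-negative cells of both plates, but its average over the gates was under 5 TPM, so it was not measured. Rn18s-rs5, the ribosomal RNA row that takes most of the TPM, held 60.9% and 60.4% in Sca-1-positive cells of dKO plate 2 and cKO plate 3, against 56.0% and 55.3% in Sca-1-negative cells, which lowers the TPM of all other rows there. Genes detected had medians of 4770 and 4808 in Sca-1-positive cells, against 5189 and 5044 in Sca-1-negative cells of those plates. With ERCC and the 5 most abundant rows removed, Rn18s-rs5 among them, Bmp4 passed as higher on both plates and Grem1 as lower on cKO plate 3. On dKO plate 2 Bmp2 also passed as higher and Id1 and Smad7 as lower. On TPM as deposited, 1 of the 19 Sca-1-positive dKO cells held 57.9% of their summed Bmp2 TPM. The share of all genes that passed under this scaling is not given for the gates. Nothing is therefore read from these calls. The part of the number of genes detected was not tested.

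Across single cells the members differed in how far they went with Cd34. Pearson's r of log2(TPM + 1), after centring each gene on its plate mean over 337 Sca-1-negative cells, was 0.66 between Grem1 and Cd34, 0.63 between Id2 and Cd34, 0.50 between Nbl1 and Cd34, 0.34 between Id3 and Cd34 and 0.21 between Id1 and Cd34. Among the members the highest values were 0.39 between Grem1 and Nbl1, between Grem1 and Id2, between Nbl1 and Id2 and between Id2 and Id3, and 0.35 between Id1 and Id3. Grem1 and Id2 were both positive in 28 cells, of 56 positive for Grem1 and 66 positive for Id2. Between Grem1 and Nbl1, r was 0.10 and 0.22 on dKO plates 1 and 2, against 0.50, 0.48 and 0.50 on cKO plates 1, 2 and 3. Bmpr1a had r between -0.06 and 0.10 with Cd34 and with every other member. These cells share plates and sorts, and Grem1, Nbl1 and Id2 had r of -0.28, -0.20 and -0.14 with the number of genes detected, so the values describe these libraries and no test was made.

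**Figure D5:**
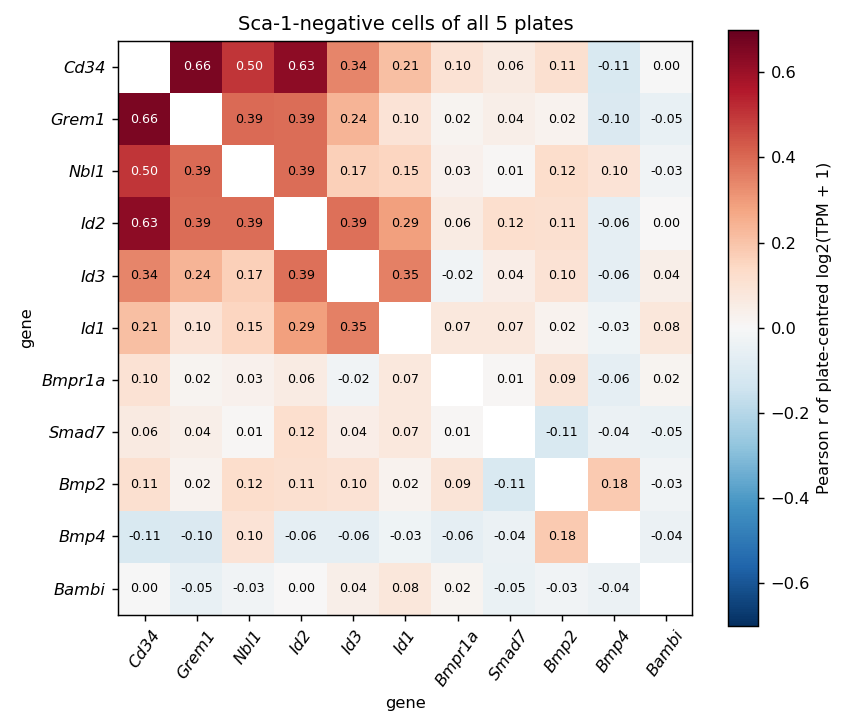
The matrix gives Pearson's r of plate-centred log2(TPM + 1) between Cd34 and the 10 members over 337 Sca-1-negative cells, with red for positive and blue for negative values. Cd34, Grem1, Nbl1 and Id2 have r of 0.39 to 0.66 with one another, and Bmpr1a, Smad7, Bmp2, Bmp4 and Bambi stay between -0.11 and 0.18.

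For the 4 members positive in at least 25% of these cells, the genes with the most similar pattern were taken from 3828 candidates that were positive as often. For Nbl1 they were Cd34 (r 0.50), Tbx1, a T-box transcription factor (0.50), and Cxcl14, a chemokine (0.49). Cd34 and Tbx1 are 2 of the 9 bulge markers. For Id3 they were Crip1, a LIM-domain protein (0.39), the taurine transporter gene Slc6a6 (0.36) and the amino acid transporter gene Slc38a2 (0.36). For Id1 they were Id3 (0.35), the gap junction gene Gja1 (0.23) and the calcium-binding protein gene S100a4 (0.21). Id2, positive in 19.6% of cells, was not a candidate, although its r was 0.29 with Id1 and 0.39 with Id3. The highest values for Bmpr1a, 0.22 with Ahctf1 and Arhgef12 and 0.19 with Nf1, were too weak to describe a pattern.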

How the data were processed

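The table of TPM was deposited by the authors with 1 column per cell. The submitters' processing notes name the aligner Bowtie2 (2.2.9), the quantifier RSEM (1.2.30) and the build mm10, and no annotation release. RSEM divides reads shared by similar genes by a model, and Smart-seq2 does not mark strand, so reads of overlapping or antisense genes cannot be told apart. Each column sums to the same total, with ERCC spike-ins included, so read depth is unknown, and the number of genes at 1 TPM or more stands in for it. Cells were assigned to genotype and gate from their labels and to plates from their titles. TPM was averaged per plate and then over plates with equal weight (Python 3.11.15, pandas 2.3.3, SciPy 1.17.1); the rules of size are given with each comparison, and the scripts were tested on simulated data. No p-value was computed, because the labels name no animal, and plates were not taken as independent replicates. The members and gene lists were chosen with earlier results of these data known. Named are all members, every gene of the 5 other pathway lists that passed a rule, and the genes most similar to members positive in at least 25% of cells. Alternatives changed the pseudocount, the filters on cells and genes, the ratio, the scaling, the weighting, the Cd34 threshold and the plates used. Promoters came from RefSeq. Doublets were not called, since cells were sorted singly.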

Additional observations from a re-analysis of the deposited data

Results flagged for a closer look

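Bmpr1a differed between genotypes in opposite directions on both kinds of plate. Its log2 ratio of dKO to cKO in Sca-1-negative cells was -0.57 on the Xist plates (dKO plate 1 against cKO plates 1 and 2) and 0.0965 on the Y plates (dKO plate 2 against cKO plate 3). It was marked because every plate of one kind moved one way and the plate pair of the other kind moved the opposite way; the difference was not tested, and both values are under the ratio of 1.5.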

How the results depend on the processing

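The 33 log2 ratios of measured members were recomputed under 9 to 19 alternative settings each, which gave 487 recomputed values. Of these values, 443 stayed within the spread between plates and 44 moved further, and no called ratio changed sign. That spread is wide: Id1 between genotypes stayed within it in 17 of 17 values, although they ran from -1.07 to 0.15. The count of members past the rule between genotypes was 1 (Nbl1) with genes averaging at least 20 TPM and with the highest 5% of cells per gene removed, against 2; it was 3 (Id3 joining) within the Xist plates, without dKO plate 1 and without cKO plate 3, 2 leaving out any other plate, and 2 within the Y plates, where these were Grem1 and Id3. In Cd34-positive cells that count was 6 within the Y plates (5 lower and Bmpr1a higher), where 1 plate stands against 1 and no overlap is easily met; leaving out each plate gave 2 to 5. In Cd34-negative cells it was 2 within the Xist plates and 0 to 2 leaving out each plate, against 0. The count in Cd34-positive against Cd34-negative cells was 2 at 20 TPM (Nbl1 and Id3) and 5 (Id1 joining) without dKO plate 2, at 1 TPM of Cd34 and with the highest 5% of cells removed, against 4. Between gates on dKO plate 2 it was 0 at 20 TPM and 4 with ERCC and the 5 most abundant rows removed (Bmp2, Bmp4, Id1 and Smad7), against 1. On cKO plate 3 it was 1 (Bmp4) with no filter on cells and with size factors, and 0 at 20 TPM and with the highest 5% of cells removed, against 2. A filter at 20 TPM tests fewer genes. For the other settings the cause was not tested. The share of all measured genes lower in dKO also changed: 3.96% as reported, 14.9% within the Xist plates and 10.2% within the Y plates. In Cd34-positive cells it was 5.47%, and 11.7% without dKO plate 1. In Cd34-negative cells it was 4.97%, and 11.2% without dKO plate 2. For most other settings that share is not given, so these counts are not read as a result about the members. The overall median between genotypes was -0.02 with size factors, against -0.12. The Cd34 classes and the gates were compared within plates. The genotypes were not paired, because no plate holds both. Their ratios within the Xist plates and within the Y plates are given with the results.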
